A study of Rattus norvegicus with 6 samples.

Results

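The genes described here encode enzymes that join ubiquitin to proteins or take it off, and are those whose symbol on the array platform begins with Ube2, with Rnf and a digit, or with Usp and a digit, read only on probe sets annotated to 1 gene. They number 104 of the 10411 genes on the array: 27 conjugases, 44 RING ligases and 33 deubiquitinases. Each gene was read on its probe set of highest mean over the 6 arrays. The tissue was pancreas of 3 rats on an ethanol diet and 3 rats on a control diet, the ethanol feeding being chronic by the study's title, with 1 single-colour array a rat and with strain, sex, age, ethanol dose and feeding time not given in the sources used here. Intensities are in the authors' deposited units, and log2 changes are ethanol minus control of log2(intensity + 50), which understates changes of dim probe sets. A probe set was tested if its mean log2 value reached the 40th percentile of all probe sets, which corresponds to an intensity of about 392. Of the 104 genes, 87 were tested: 21 conjugases, 37 RING ligases and 29 deubiquitinases.

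Ubiquitin is a small protein that cells join to other proteins to mark them for destruction by the proteasome or to change their activity or location. An activating enzyme (E1) loads ubiquitin, a conjugating enzyme (E2, mostly named Ube2) carries it, and a ligase (E3) places it on the target. Many ligases, among them those named Rnf, hold the conjugase through a zinc-binding RING domain. Deubiquitinases, of which the Usp proteases are the largest family, take ubiquitin off again. In the acinar cells of the pancreas, which make and export digestive enzymes in bulk, the system also disposes of proteins that fail to fold in the endoplasmic reticulum (ER).

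The tissue carried the markers of exocrine pancreas: the summed intensity of 9 acinar markers was 984706 to 1020260 on ethanol arrays and 974569 to 987472 on control arrays. None of the markers of 10 cell types on the array was at 0 on every array. Summed levels of the 2 diets overlapped for duct, islet, fibroblast, endothelial, lymphoid, neutrophil and mast cell, and adipocyte markers. The 4 erythroid markers summed to 25617 to 33312 on ethanol arrays and 15433 to 22883 on control arrays, without overlap. Of the 4, 3 had an unadjusted limma p under 0.05, all higher with ethanol, beside 7.66% of all tested genes. The acinar marker Ptf1a (log2 change 0.45), 1 of 9 tested, and the adipocyte marker Cfd (0.69), 1 of 2 tested, were also higher at such a p. The 9 acinar markers had a median log2 change of 0.04, and the other tested adipocyte marker, Fabp4, was at -0.13. Macrophage markers summed to 7151 to 8016 and to 6370 to 7134 on ethanol and control arrays, also without overlap, with 0 of 4 genes at an unadjusted limma p under 0.05. The part of these cells in the results below was not tested. In whole tissue, fewer cells of a type and less RNA per cell cannot be told apart.

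Of the 87 tested genes, 1 passed the test. Rnf138, a RING ligase, fell in the pancreas of ethanol-fed rats, and no conjugase or deubiquitinase passed the test (limma, Benjamini-Hochberg adjusted p under 0.05 over all 9520 tested probe sets). By the same rule 0.410% of those probe sets passed, and 0.436% of all 7106 genes on their brightest probe set. Without the adjustment, 15 of the 87 genes had a p under 0.05, which is 17.2% of them, beside 18.8% of all tested genes. Of these 5 were higher and 10 lower with ethanol, that is 5.75% and 11.5% of the members, beside 7.66% and 11.2% of all tested genes. The 3 ethanol arrays lay apart from the 3 control arrays on 8 members that were higher and 13 that were lower, 9.20% and 14.9%, beside 11.0% and 15.4% of all tested genes. Of the 10 lower members, Rnf138, Rnf114, Ube2o and Usp8 had an ethanol mean below the level of the filter and were tested only because their control values were high, so these 4 had to differ. The shares of ubiquitin enzymes were near those of the array as a whole, and what follows is a description of single members.

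**Figure D1:**
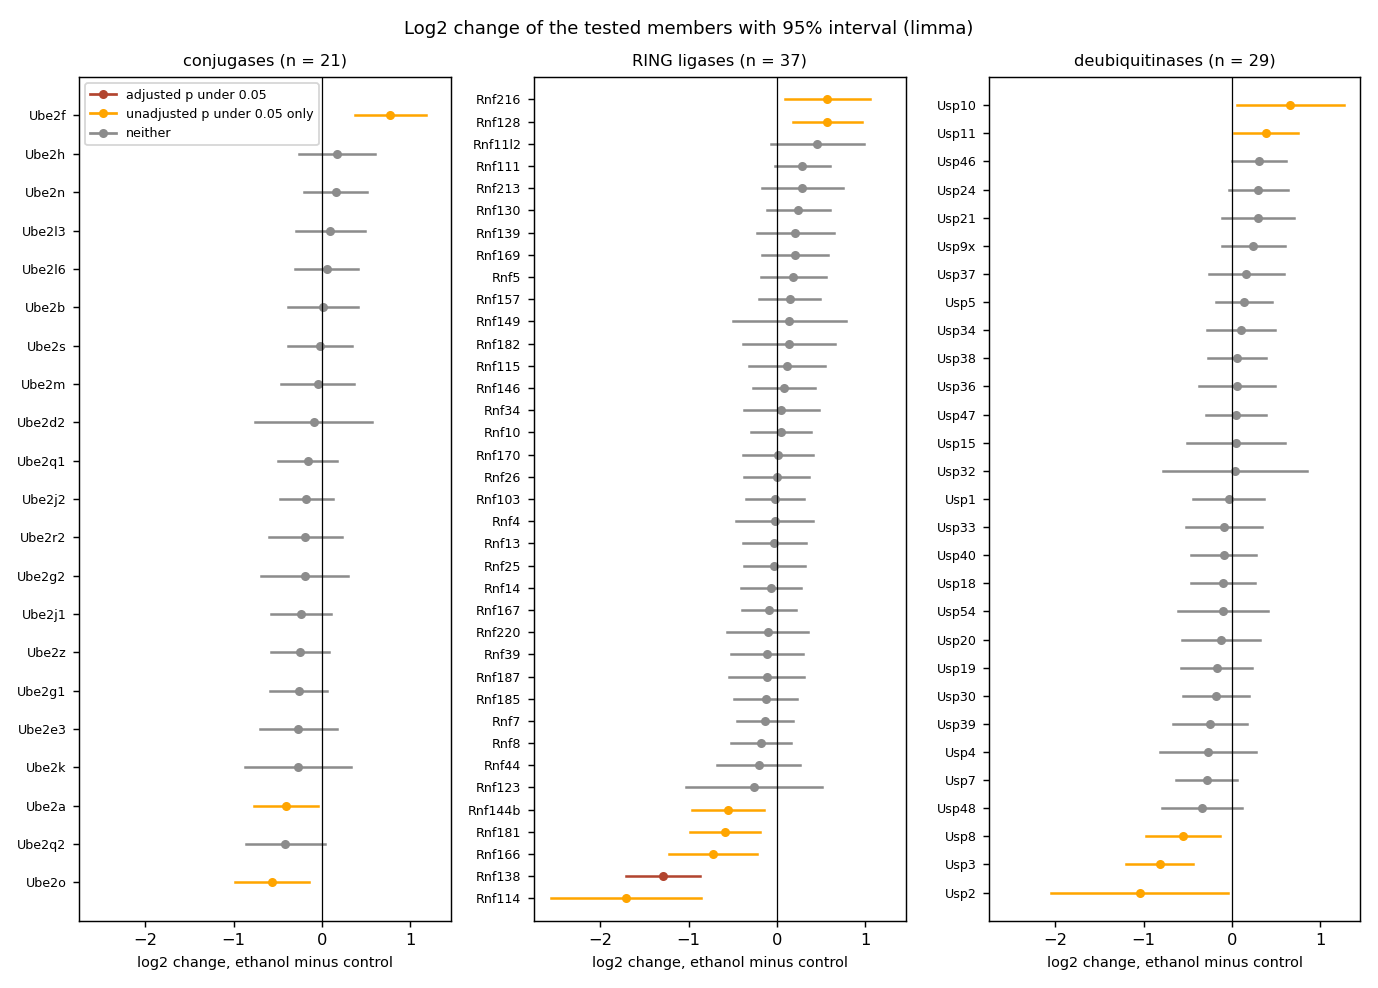
Log2 change (ethanol minus control, x axis) of each tested conjugase, RING ligase and deubiquitinase, with its 95% interval from limma. Rnf138, at -1.29, is the gene that passed the adjusted threshold; the 14 in orange had an unadjusted p under 0.05 only, and the remaining intervals include 0.

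Rnf138 is a ligase that in human cells acts at DNA double-strand breaks, where it promotes resection of the broken ends, and that binds the Nemo-like kinase of Wnt signalling. Its intensity was 423, 282 and 302 in ethanol replicates 1, 2 and 3, against 1014, 860 and 780 in control replicates 1, 2 and 3. Every ethanol rat was below every control rat, and the gap between the groups exceeded the range within either. The means were 336 ± 76.3 and 885 ± 119 in ethanol and control rats (SD, n = 3 each), a log2 change of -1.29 (SE 0.18, 95% interval -1.71 to -0.87, limma adjusted p = 0.0448). The gene was singled out because earlier results of these data had shown the fall, so the p is no independent evidence. The call also depends on the filter, which the gene passed through its control values: without the filter the limma adjusted p was 0.161. Leaving out ethanol replicate 2 or 3 gave limma adjusted p of 0.0930 and 0.136, and leaving out control replicate 1, 2 or 3 gave 0.154, 0.165 and 0.120. Without ethanol replicate 1 the limma adjusted p was 0.0236, and the log2 change stayed between -1.44 and -1.19 in these 6 fits.

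A dimmer probe set of Rnf138, below the level at which probe sets were tested, read 168, 124 and 198 in the ethanol rats, against 298, 251 and 250 in the control rats. It too showed no overlap between the diets. Fitted without the filter on low values, its log2 change was -0.58 (limma adjusted p = 0.255).

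Rnf114 and Rnf166 are related to Rnf138: in humans these ligases and RNF125 form a small family that shares a RING domain, zinc fingers and a ubiquitin-binding helix. They were brought together after their values were seen. Rnf114 read 87, 361 and 241 in ethanol replicates 1 to 3, against 838, 949 and 596 in control replicates 1 to 3. The groups did not overlap, although the ethanol rats spread widely, and the log2 change of -1.71 (SE 0.37) did not pass (limma adjusted p = 0.0911). Rnf166, a ligase that in human cells helps to mark invading bacteria for autophagy, read 509, 581 and 852 in the ethanol rats, against 1123, 1263 and 877 in the control rats. Ethanol replicate 3 came close to control replicate 3, and the log2 change was -0.72 (SE 0.22, limma adjusted p = 0.155). Rnf125 had no probe set annotated to it alone. Neither relative passed the test, and Rnf114, like Rnf138, was tested only through its control values, so the 3 genes are no evidence of a shared pattern.

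**Figure D2:**
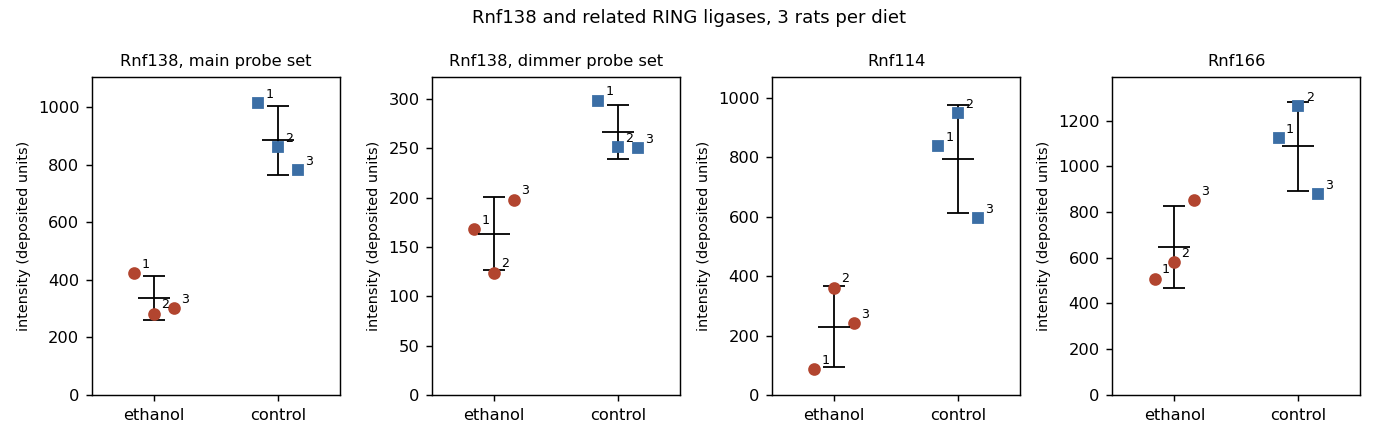
Intensity (y axis, deposited units) of Rnf138 on both of its probe sets, of Rnf114 and of Rnf166, for ethanol rats (circles) and control rats (squares), numbered by replicate, with mean and SD. In all 4 panels each ethanol rat lies below each control rat, by the least on Rnf166, where the nearest rats read 852 and 877.

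The promoters of these ligases are shown because Rnf138 carries the call and the other two are its relatives. They are RefSeq sequences of the GRCr8 assembly, from 250 bases before to 50 after the annotated start, 5′ to 3′ on the gene's strand. Capitals mark matches on either strand to motifs searched without regard to overlap: the GC box (GGGCGG), the CCAAT box (CCAAT), the E-box (CACGTG), the cAMP response element (TGACGTCA), the AP-1 site (TGANTCA), the D-box (TTANNTAA) and the heat shock element. Rnf138 lies at chr18:12566974-12567273 (+), Rnf114 at chr3:176641249-176641548 (+) and Rnf166 at chr19:67447765-67448064 (-).
Rnf138: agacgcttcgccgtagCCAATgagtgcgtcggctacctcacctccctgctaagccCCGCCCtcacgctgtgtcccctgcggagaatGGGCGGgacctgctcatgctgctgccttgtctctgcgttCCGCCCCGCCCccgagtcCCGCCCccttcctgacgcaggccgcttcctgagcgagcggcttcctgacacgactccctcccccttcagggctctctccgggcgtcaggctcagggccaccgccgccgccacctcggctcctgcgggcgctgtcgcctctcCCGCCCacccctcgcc
Rnf114: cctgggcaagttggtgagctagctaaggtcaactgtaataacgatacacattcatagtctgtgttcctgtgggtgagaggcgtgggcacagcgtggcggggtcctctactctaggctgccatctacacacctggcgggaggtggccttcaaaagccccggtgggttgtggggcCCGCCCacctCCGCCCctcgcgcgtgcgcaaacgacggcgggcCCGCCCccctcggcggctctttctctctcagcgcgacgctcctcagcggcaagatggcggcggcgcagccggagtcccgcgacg
Rnf166: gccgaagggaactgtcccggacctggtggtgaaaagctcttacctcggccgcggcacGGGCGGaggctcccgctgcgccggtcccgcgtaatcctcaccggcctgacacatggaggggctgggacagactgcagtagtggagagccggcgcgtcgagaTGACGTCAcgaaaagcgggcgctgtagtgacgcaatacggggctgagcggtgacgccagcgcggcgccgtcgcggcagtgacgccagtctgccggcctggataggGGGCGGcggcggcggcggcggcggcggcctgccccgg

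All of these windows are rich in G and C (71.3% in Rnf138, 66.0% in Rnf114 and 72.0% in Rnf166, beside a median of 51.7% over 33469 rat promoters and 63% over the 90 promoters of member genes in the table). Rnf138 held 6 GC boxes, some of them overlapping, and 1 CCAAT box. Rnf114 held 3 GC boxes, and Rnf166 held 2 and 1 cAMP response element. A GC box occurred in 33.1% of all promoters and 67.8% of those of member genes, so the match they share is a common one. A CCAAT box occurred in 37.5% and a cAMP response element in 1.83% of all promoters. The E-box (6.42% of all promoters), AP-1 site (7.33%), D-box (5.84%) and heat shock element (0.798%) had no match in these windows.

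Among the other RING ligases, Rnf181 was lower on both of its tested probe sets. The ligase binds the platelet integrin in humans. Its main probe set read 2062, 1457 and 1950 in the ethanol rats, against 2591, 2617 and 3025 in the control rats (log2 change -0.59, SE 0.17, limma adjusted p = 0.147). The other read 946, 778 and 750, against 1623, 1634 and 1429 (-0.89, SE 0.15, limma adjusted p = 0.0571). Neither passed and neither overlapped between diets. The second passed with a constant of 100 in place of 50 (limma adjusted p = 0.0490), with a filter set at the 60th percentile (0.0269) and when the variance could follow the level (0.0224).

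Rnf144b, a ligase induced by p53 in human cells, read 983, 1160 and 934 in the ethanol rats, against 1775, 1231 and 1612 in the control rats (log2 change -0.55, SE 0.18, limma adjusted p = 0.167). Higher with ethanol were Rnf128 and Rnf216. Rnf128, a membrane ligase known from T cell anergy, read 1483, 1550 and 1437 in the ethanol rats, against 1234, 946 and 829 in the control rats (0.57, SE 0.17, limma adjusted p = 0.155). Rnf216, which in human cells turns over Toll-like receptors, read 1339, 936 and 838, against 550, 672 and 806 (0.57, SE 0.21, limma adjusted p = 0.210). On all of these the diets were apart, narrowly for Rnf216 and Rnf144b, and none passed. The 37 tested RING ligases had a median log2 change of -0.02, beside -0.01 over all tested genes, with 17 above 0 and 20 below.

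Rnf111, a ligase that promotes TGF-beta signalling by removing its inhibitors, was the other RING ligase with diets apart: it read 758, 729 and 674 in the ethanol rats, against 548, 583 and 613 in the control rats, a difference of 0.29 (SE 0.13, limma adjusted p = 0.304). The RING ligases of highest mean were Rnf7, Rnf5 and Rnf10, and all 3 overlapped between diets. Rnf10 stood at 2775 ± 380 and 2676 ± 25.4 in ethanol and control rats (SD, n = 3 each). Rnf146, which ubiquitinates proteins marked with poly-ADP-ribose, stood at 2613 ± 328 and 2456 ± 186, and Rnf130, a membrane ligase, at 2340 ± 106 and 1985 ± 304. Rnf149, a ligase of the same membrane-bound kind as Rnf128, read 573, 750 and 1178 in the ethanol rats, against 901, 526 and 785 in the control rats. Rnf13, Rnf103 and Rnf167, of endosomes and the ER, overlapped between diets as well.

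No conjugase passed the test. At an unadjusted limma p under 0.05, 2 of 21 (9.52%) were lower and 1 (4.76%) higher, beside 11.2% and 7.66% of all tested genes. Of the 21, 15 (71.4%) had a negative log2 change, beside 51.4% of all tested genes, and the median was -0.18, beside -0.01. On 6 of the 21 (28.6%) the ethanol rats lay below all control rats, beside 15.4% of all tested genes. On 1 (4.76%) they lay above all control rats, beside 11.0%. Ube2o, counted in the 6 and in the 2 lower at such a p, was tested only through its control values and had to differ. On the 6 lower genes ethanol replicate 1 was the lowest ethanol rat for Ube2o only. Much of the shift of the median came with ethanol replicate 1. Relative to each gene's mean over the 6 arrays, the median conjugase stood at -0.17, -0.0044 and -0.016 on ethanol arrays 1, 2 and 3. On control arrays 1, 2 and 3 it stood at 0.065, 0.086 and 0.097. Without ethanol replicate 1 the median log2 change was -0.06.

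Conjugases of ER-associated degradation, which carry ubiquitin to misfolded proteins drawn back from the ER, were among those with diets apart. Ube2j1, anchored in the ER membrane, read 1506, 1429 and 1215 in the ethanol rats, against 1786, 1570 and 1566 in the control rats (log2 change -0.24, SE 0.15, limma adjusted p = 0.422). Its relative Ube2j2 read 2138, 2074 and 2189, against 2503, 2309 and 2470 (-0.18, SE 0.13, limma adjusted p = 0.490). Ube2g1 read 2617, 2756 and 2606, against 3332, 2847 and 3453 (-0.26, SE 0.14, limma adjusted p = 0.361). None of the 3 passed, and the median standard error over the array was 0.18. Of the 9 tested enzymes with a role in this pathway, 0 had an unadjusted limma p under 0.05, beside 18.8% of all tested genes. A negative log2 change was found in 7 (77.8%), beside 51.4% of all tested genes. Among these 7, Usp19 had -0.17 on its main probe set and 0.17 on the other. The ER ligases Rnf5 (0.19, 95% interval -0.18 to 0.56) and Rnf139 (0.21, 95% interval -0.23 to 0.64) were the 2 positive ones.

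The other conjugases with diets apart and lower with ethanol were Ube2o, Ube2a and Ube2z. Ube2o, a large enzyme that joins conjugase and ligase in 1 protein and clears proteins from maturing red cells, read 306, 461 and 359 in the ethanol rats, against 486, 642 and 607 in the control rats (log2 change -0.57, SE 0.18, limma adjusted p = 0.167). The erythroid markers went the opposite way on these arrays: Hbb, a globin, was higher by 0.80 on the log2 scale (SE 0.20, limma adjusted p = 0.107), and the part of red cells in the Ube2o value was not tested. Ube2a, a Rad6 homologue that ubiquitinates histone H2B, read 583, 698 and 499, against 754, 840 and 798 (-0.41, SE 0.16, limma adjusted p = 0.226). Ube2z, which takes its ubiquitin from the activating enzyme Uba6, read 2959, 2495 and 3051, against 3342, 3453 and 3318 (-0.25, SE 0.14, limma adjusted p = 0.384). Ube2d2, a conjugase that works with many RING ligases, had overlapping groups at 1038 ± 402 and 1056 ± 164 in ethanol and control rats (SD, n = 3 each). The groups also overlapped for Ube2n, a maker of signalling chains linked through lysine-63, at 911 ± 103 and 813 ± 90.4.

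Ethanol replicate 1 was the lowest of the 6 arrays on several conjugases that overlapped between diets. Ube2k, which extends ubiquitin chains, read 917, 1495 and 2080 in ethanol replicates 1, 2 and 3, against 1745, 1768 and 1681 in the control rats. Ube2g2, the soluble conjugase of ER-associated degradation, read 780, 1391 and 1223, against 1214, 1411 and 1194. Ube2e3 read 553, 812 and 910, against 951, 874 and 895, and Ube2d2 read 581, 1337 and 1197, against 963, 960 and 1246. Ube2b, the second Rad6 homologue, showed the same low first value at 1609, 2437 and 2029, against 2010, 1931 and 2024. On these 5 genes ethanol replicates 2 and 3 lay within or above the range of the control rats, apart from Ube2e3 and Ube2k, where 1 of the 2 lay below it.

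Ube2f stood at the other end of the class, and its probe sets disagreed. The enzyme carries not ubiquitin but the related NEDD8, which it passes with the RING protein Rnf7 to the scaffold Cul5. The main probe set read 2775, 2022 and 1903 in the ethanol rats, against 1177, 1285 and 1348 in the control rats (log2 change 0.77, SE 0.18, limma adjusted p = 0.0964). The other probe set read 1203, 1348 and 1468, against 1718, 1674 and 1346 (-0.23, SE 0.16, limma adjusted p = 0.478). On the first every ethanol rat lay above every control rat, on the second the groups overlapped and 1 ethanol rat lay below all control rats, and with the probe sets averaged the change was 0.27. Rnf7 was at 3702 ± 99.0 and 4085 ± 381 in ethanol and control rats (-0.14, SE 0.14), and the other NEDD8 conjugase, Ube2m, at 1360 ± 198 and 1414 ± 256 (SD, n = 3 each), both with overlapping groups.

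Among the deubiquitinases, Usp3 had the smallest p. It removes ubiquitin from histones in human cells. It read 472, 672 and 581 in ethanol replicates 1 to 3, against 1126, 1062 and 943 in control replicates 1 to 3, a difference of -0.82 on the log2 scale (SE 0.17) at a limma adjusted p of 0.0858. The diets were well apart, and the gene passed when the filter was at the 60th percentile (limma adjusted p = 0.0449) or the variance followed the level (0.0476). Usp8, which frees receptors from ubiquitin at the endosome, read 404, 388 and 265, against 573, 561 and 472 (-0.56, SE 0.18, limma adjusted p = 0.170). Its groups were apart as well.

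Higher with ethanol were Usp10, a deubiquitinase of p53 in human cells, and Usp11, which takes part in DNA repair. Usp10 read 2314, 1823 and 1771 in the ethanol rats, against 1628, 779 and 1427 in the control rats (log2 change 0.66, SE 0.26, limma adjusted p = 0.240). Usp11 read 1455, 1238 and 1257, against 887, 953 and 1165 (0.38, SE 0.16, limma adjusted p = 0.244). Both were apart between diets, and the size of the Usp10 difference rested largely on control replicate 2, without which it was 0.35. Usp46 (0.30, SE 0.13) and Usp24 (0.30, SE 0.15) also had higher values in every ethanol rat, at an unadjusted limma p of 0.0511 and 0.0757. The 29 tested deubiquitinases had a median log2 change of -0.04, with 14 above 0 and 15 below. The diets were apart on 4 (13.8%) that were higher and 2 (6.9%) that were lower, beside 11.0% and 15.4% of all tested genes. Of the 2, Usp8 was tested only through its control values. Usp5, which takes apart free ubiquitin chains, was at 2345 ± 198 and 2127 ± 102 in ethanol and control rats (0.14, SE 0.14), and Usp7, the p53 and Mdm2 protease, at 1298 ± 174 and 1584 ± 99.8 (-0.28, SE 0.15; SD, n = 3 each).

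The deubiquitinases of highest mean were Usp36, Usp21 and Usp2, all with overlapping diets. Usp36, a nucleolar protease, read 5282, 3620 and 3374 in the ethanol rats, against 3824, 3798 and 3936 in the control rats, so that ethanol replicate 1 was the highest of the 6 and the other 2 the lowest. Usp21, a histone H2A protease, read 3458, 2577 and 2993, against 2365, 2103 and 2869 (0.30, SE 0.18). Usp9x, an abundant protease with many substrates, stood at 1426 ± 217 and 1190 ± 65.6 in ethanol and control rats, and Usp48 at 736 ± 129 and 953 ± 195 (SD, n = 3 each). The interferon-induced pair Usp18 and Ube2l6, protease and conjugase of the modifier Isg15, stood at 910 ± 128 and 975 ± 99.7 and at 416 ± 45.8 and 401 ± 50.3 in ethanol and control rats. Both overlapped between diets. Usp32 overlapped widely, with 583, 238 and 522 in the ethanol rats and 248, 474 and 569 in the control rats.

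Usp2, whose transcript follows the daily clock in mouse tissues, varied widely among the ethanol rats. On its main probe set ethanol replicates 1, 2 and 3 read 3398, 1042 and 1016, and control replicates 1, 2 and 3 read 3383, 4182 and 2375. Ethanol replicate 1 lay among the controls, while the other 2 ethanol rats were below them all. The log2 change was -1.04 (SE 0.44, limma adjusted p = 0.253), and -1.60 without ethanol replicate 1 (limma adjusted p = 0.0535). The other probe set read 3306, 2342 and 1896 in the ethanol rats, against 2069, 2304 and 1620 in the control rats, an overlapping pattern of opposite sign (0.30, SE 0.23).

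**Figure D3:**
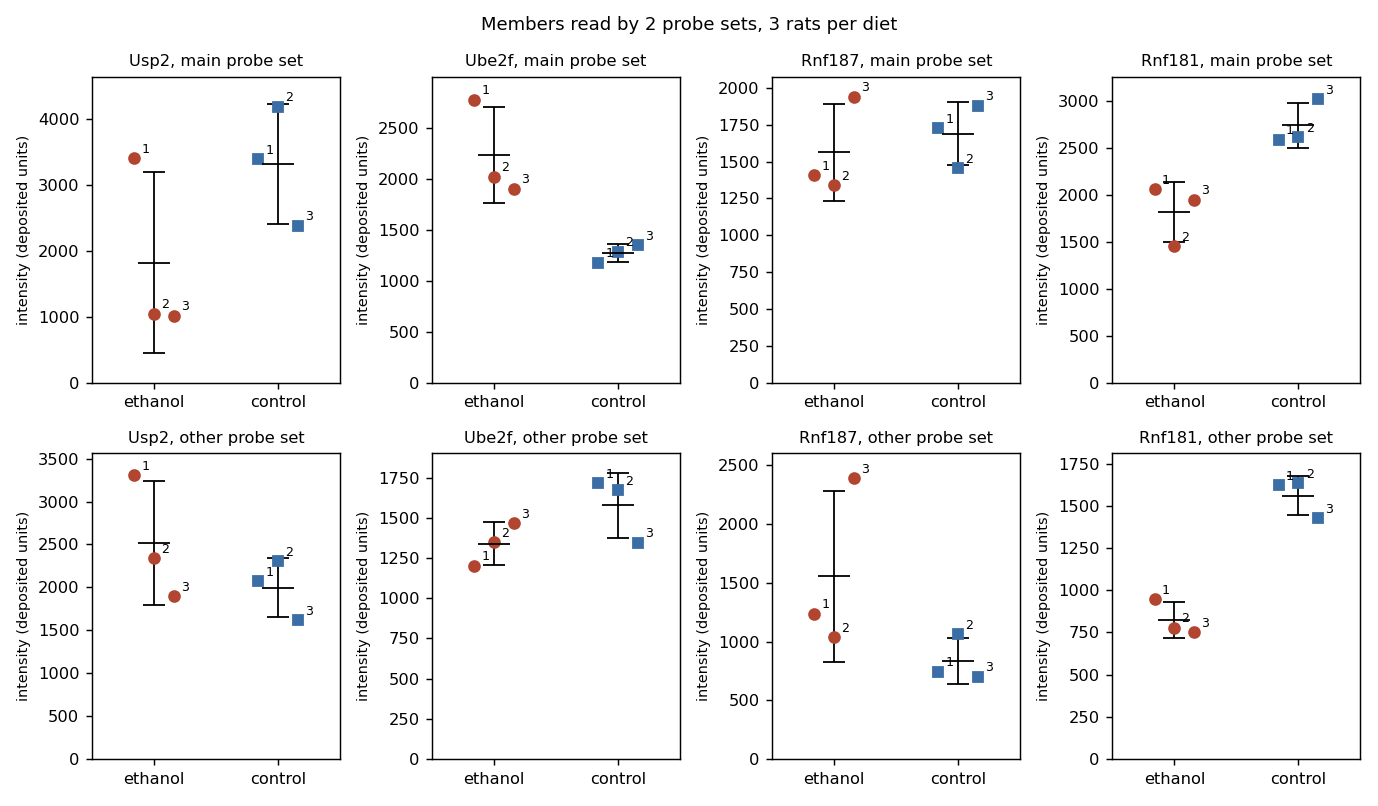
Intensity (y axis, deposited units) of Usp2, Ube2f, Rnf187 and Rnf181 on the main (top) and the other tested probe set (bottom), for ethanol rats (circles) and control rats (squares), numbered by replicate, with mean and SD. Rnf181 has the ethanol rats lower on both probe sets, whereas Usp2, Ube2f and Rnf187 have log2 changes of opposite sign, such as 0.77 and -0.23 for Ube2f.

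How far a member can be read from 1 probe set was checked on the 16 members with several tested probe sets. On 8 of them the log2 changes had opposite signs, on 5 they differed by over 0.5, and 7 showed neither. Besides Usp2 and Ube2f, Rnf187 had -0.12 (SE 0.18) on its main probe set and 0.79 (SE 0.30) on the other. On the second, ethanol replicate 3 read 2390 while the other 2 ethanol rats, at 1238 and 1036, were near the highest control at 1060. Rnf213, a very large ligase linked to moyamoya disease in humans, had 0.29 (SE 0.20) and -0.38 (SE 0.39). Rnf4, which ubiquitinates proteins that carry SUMO, had -0.03, -0.35 and -0.58 on its 3 probe sets. Rnf123 had the same sign on both, with control replicate 2 standing apart on the main one: 782, 873 and 850 in the ethanol rats, against 791, 1901 and 676 in the control rats (-0.26, SE 0.33). Its other probe set read 789, 632 and 674, against 1062, 1020 and 939 (-0.50, SE 0.15, limma adjusted p = 0.146), with the diets apart.

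Read by role, enzymes of DNA repair and histone ubiquitination held 4 of the 15 members with an unadjusted p under 0.05, among 11 tested (Rnf138, Usp3 and Ube2a lower, Usp11 higher), which is 36.4%, beside 18.8% of all tested genes. Only Rnf138 passed the adjusted threshold, and the median of the 11 was -0.04. Rnf8, the ligase that starts ubiquitin signalling at breaks, was at 829 ± 110 and 940 ± 29.1 in ethanol and control rats (SD, n = 3 each; log2 change -0.18, SE 0.15). The 12 tested enzymes of membrane traffic held 4 more (Rnf128 and Usp10 higher, Usp8 and Usp2 lower), or 33.3% beside the same 18.8%, with a median of -0.03. Of these 8 genes, Rnf138 and Usp8 were tested only through their control values. The mitotic conjugase Ube2s overlapped between diets at 1633 ± 261 and 1653 ± 102.

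The 17 genes below the intensity filter had no main test. Chosen after their values were seen, Rnf19a, a ligase that joins RING domains to an in-between domain, read 458, 636 and 576 in the ethanol rats, against 233, 170 and 290 in the control rats. In a fit without the filter its log2 change was 1.12 (limma adjusted p = 0.197). Rnf126, a ligase for mislocalised membrane proteins, read 44, 401 and 221, against 566, 607 and 520 (-1.44, limma adjusted p = 0.359). Usp12 read 336, 467 and 366, against 232, 221 and 334 (0.50, limma adjusted p = 0.342). On these 3 the diets were apart, narrowly for Usp12, and on the other 14 they overlapped. Of all tested genes 26.4% had diets apart. No such share was taken over all genes below the filter, so the 3 of 17 are a description only.

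The rest of the ubiquitin system was looked at through lists of other ligases, deubiquitinases and cofactors, each gene again on its probe set of highest mean. Over these 99 tested genes, 0 passed the adjusted threshold with limma. At an unadjusted p under 0.05, 6 were higher and 17 lower, that is 6.06% and 17.2%, beside 7.66% and 11.2% of all tested genes, and the median was -0.12.

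ER-associated degradation had 17 tested genes, of which 1 was higher and 5 lower at an unadjusted limma p under 0.05 (median -0.16), that is 5.88% and 29.4%, beside 7.66% and 11.2% of all tested genes. Os9, a lectin that picks misfolded glycoproteins, read 1763, 1715 and 1600 in the ethanol rats, against 3429, 2931 and 2586 in the control rats (log2 change -0.79, SE 0.15, limma adjusted p = 0.0793). The ER membrane protein Ubxn4, which recruits the unfolding enzyme Vcp, read 3727, 3467 and 3489, against 5840, 5436 and 4844 (-0.58, SE 0.14, limma adjusted p = 0.106). Both were well apart between the diets. Vcp itself was at -0.39 (SE 0.15), its cofactor Nploc4 at -0.69 (SE 0.25) and Edem2 at -0.40 (SE 0.15), while Erlec1, another lectin of the pathway, was at 0.43 (SE 0.17). Os9 passed when the filter was at the 60th percentile (limma adjusted p = 0.0373) or the variance followed the level (0.0211).

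Cullin-RING ligases and the COP9 signalosome, the complex that removes NEDD8 from cullins, had 1 of 22 tested genes higher (Elob) and 5 lower (Cops2, Cops4, Cul3, Cul4b and Fbxo6) at an unadjusted limma p under 0.05 (median -0.12), that is 4.55% and 22.7%, beside 7.66% and 11.2% of all tested genes. Cops5, counted in the list of other deubiquitinases and not among the 22, is the subunit of the signalosome that cuts NEDD8 off. It read 238, 498 and 203 in the ethanol rats, against 901, 869 and 605 in the control rats (log2 change -1.28, SE 0.30, limma adjusted p = 0.0986). Its ethanol mean of 313 lay below the level of the filter, about 392. Cops5 was thus tested only through its control values and had to differ. Cops2 (-0.53, SE 0.14), Cops4 (-0.59, SE 0.17) and Cops8 (-0.21, SE 0.14) were also lower in every ethanol rat. With Cops5 these were 4 of the 8 tested subunits, beside 15.4% of all tested genes. Cops2, Cops4 and Cops5 had an unadjusted limma p under 0.05, which is 37.5% of the subunits, beside 11.2% of all tested genes. Both shares count Cops5, which had to differ, and the 8 subunits were grouped across lists. The shares are thus no evidence of a shared fall. The other 5 subunits, Cops8 among them, had an unadjusted limma p of 0.05 or more. Of these, Cops3 (0.17) and Cops6 (0.053) were higher. The scaffolds Cul3 (-0.32, SE 0.14) and Cul4b (-0.66, SE 0.20) were lower, while Cul5, the partner of Ube2f and Rnf7, was at 1506 ± 206 and 1363 ± 193 in ethanol and control rats (SD, n = 3 each).

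In the list of other RING and U-box ligases, 4 of 26 were higher and 4 lower at an unadjusted limma p under 0.05 (median -0.11), 15.4% each way beside 7.66% and 11.2% of all tested genes. Birc3, an inhibitor of apoptosis induced by NF-kB, read 956, 689 and 1021 in the ethanol rats, against 555, 569 and 552 in the control rats (log2 change 0.61, SE 0.17, limma adjusted p = 0.138). Its relative Birc2 was at 0.81 (SE 0.34) with overlapping groups. The chromatin corepressor Trim28 read 3192, 2727 and 3134, against 4319, 4692 and 4478 (-0.57, SE 0.14, limma adjusted p = 0.107). Birc3 and Trim28 were each apart between the diets, on opposite sides.

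The ligases of the HECT type (9 tested, median -0.01), the other deubiquitinases (10, median -0.01), the system of ubiquitin-like proteins (11, median -0.07) and the E1 enzymes (5, median -0.26) held 1, 1, 1 and 0 genes at an unadjusted limma p under 0.05. As shares of their lists these counts were at most 11.1%, below the 18.8% of all tested genes. The genes were Herc4 (-0.62, SE 0.26), Cops5 and the SUMO ligase Pias3 (-0.79, SE 0.17, limma adjusted p = 0.0877), all lower. Pias3 read 680, 698 and 692 in the ethanol rats, against 1011, 1230 and 1481 in the control rats. Next in each list came Wwp2 (-0.42, SE 0.21), Otud5 (-0.47, SE 0.22) and Senp3 (-0.30, SE 0.15), and among E1 enzymes Uba3 (-0.27, SE 0.17) and Nae1 (-0.26, SE 0.18). The ethanol mean of Nae1, at 382, also lay below the level of the filter. The 4 genes for ubiquitin itself had no probe set annotated to 1 gene.

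**Figure D4:**
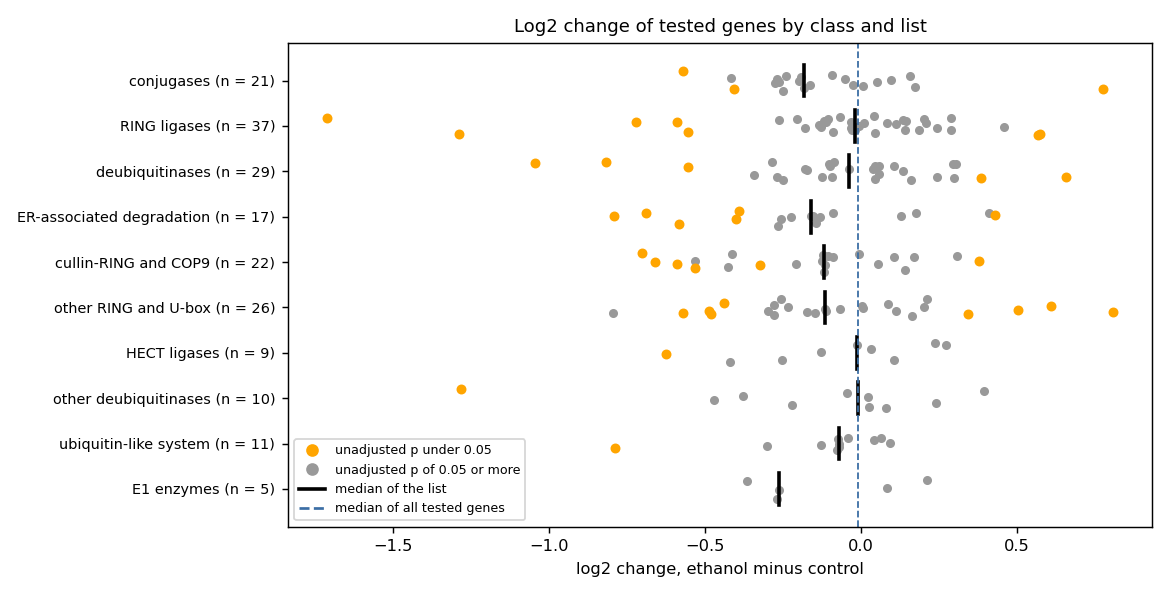
Log2 change (ethanol minus control, x axis) of the tested genes of each class and of each list of other ubiquitin-system genes; black bars are medians and the dashed line is the median of all tested genes (-0.01). Medians run from -0.26 for the 5 E1 enzymes to -0.01 for the HECT ligases and the other deubiquitinases, and points of unadjusted p under 0.05 (orange) lie on both sides of 0 in 6 of the 10 groups.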

How the data were processed

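Total RNA of 6 rat pancreases was labelled with biotin, per the labels' protocols, and hybridised to 1 array each. Each deposited table holds the authors' intensities, a value for each probe set, with software and normalization not given in the sources used here. The values are on a linear scale, with 931 to 949 below 0 on each array and medians of 543 or 544, so they were used without further normalization. Control probe sets (57 of 15923) were left out. Values below 0 were set to 0, 50 was added and log2 taken. Probe sets with a mean log2 value at or above the 40th percentile (9520) were fitted with limma 3.58.1 in R 4.3.3 on 2 groups without a block, checked on simulated data, and p-values were adjusted by Benjamini-Hochberg over all of them. The number of arrays limits the precision. Gene names come from the platform annotation; all 104 member symbols matched RefSeq (GRCr8) unchanged, and 5 probe sets annotated to several genes including such a symbol were not used, nor were probe sets without a symbol.

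Members, lists and motifs were chosen with earlier results of these data known. Genes were named by rule: Rnf138, members with an unadjusted p under 0.05, members whose probe sets disagree, members with the roles listed, members of highest mean in each class, and in the other lists the genes of smallest p. Genes with non-overlapping diets and the others mentioned are additions made after their values were seen. Probe sets of near-identical genes may take up each other's signal. Alternatives changed the constant (20 or 100), the normalization (quantile) or the filter (none, or the 60th percentile), let the variance follow the level (variance trend), took the replicate number as a block, averaged a gene's probe sets, or left out each array in turn. The heat shock element was taken as 3 GAA units in alternating direction.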

Additional observations from a re-analysis of the deposited data

How the results depend on the processing

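The log2 change of Rnf138 was negative in each of the 12 alternatives in which the gene was tested (-1.44 to -1.18) and passed in 4 of them. The limma adjusted p ran from 0.0170 to 0.165. It was not past the threshold with a constant of 20 (-1.36, limma adjusted p = 0.0501), without the filter (-1.29, limma adjusted p = 0.161) and with the replicate block (-1.29, limma adjusted p = 0.0717). Leaving out 1 array gave -1.44 to -1.19 (limma adjusted p from 0.0236 to 0.165). It was not tested with the filter at the 60th percentile or with probe sets averaged, where its level fell below the filter.

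The number of members called was 0 with a constant of 20, without the filter, with the replicate block and with probe sets averaged. In these settings 16 of 87, 16 of 104, 14 of 87 and 11 of 78 members had an unadjusted limma p under 0.05. The array-wide counts were, in the same order, 1732, 2263 and 1543 probe sets and 1244 genes. The 2263 were out of all 15866 probe sets used, and the 1543 out of 9520. The main fit had 15 of 87 members and 1747 of 9520 probe sets at such a p. The number of members called was 4 with a variance trend (Rnf138, Rnf114, Ube2f and Usp3), with 14 members and 1870 probe sets at such a p. With 1 array left out it was 0 to 1, with 10 to 15 members and 1236 to 1720 probe sets at such a p. With the filter at the 60th percentile it was 1, and that gene was Usp3, with 11 of 74 members and 1409 probe sets at such a p. Over all probe sets 39 were called. The count was 12 with a constant of 20, 134 with the filter at the 60th percentile, 249 with a variance trend, 6 with the replicate block and 2 to 38 with 1 array left out. Without the filter limma called 0, with 2263 at an unadjusted p under 0.05. The cause was not tested.

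The median of the deubiquitinases, near 0, was 0.036 without the filter and 0.044 with probe sets averaged, and -0.073 to 0.032 with 1 array left out. The medians of conjugases (-0.21 to -0.06) and RING ligases (-0.06 to 0.03) moved by less than the spread between replicates (SD 0.14 and 0.089). For conjugases that spread includes ethanol replicate 1, without which the median went from -0.18 to -0.06. A move within it is thus no sign of a stable median. The RING ligase median, negative in the main fit, was negative in 2 of the 6 fits with 1 array left out. Of 64 other log2 changes, of members, further probe sets and other genes of the system, 4 changed sign under some alternative: Rnf4 (0.025 without ethanol replicate 1, 0.0021 without ethanol replicate 3, 0.12 without control replicate 2, and -0.19 to 0.12 over the 6 arrays left out), Rnf123 (0.18 without control replicate 2, and -0.53 to 0.18 over the 6), and with probe sets averaged Rnf187 (0.34) and Rnf213 (-0.048).

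The replicate numbers are shared between the diets but belong to different rats. Deviations from the group means correlated with r of -0.0295, 0.0259 and -0.138 between rats of number 1, 2 and 3, so they were used as numbers only, and not every rat correlated best with its own number. No signal-over-background call was used here, so dim members such as the 17 below the filter are limited by signal.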
